A study of Populus trichocarpa with 9 samples.

Results

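PtrC4H1 (Potri.013G157900) and PtrC4H2 (Potri.019G130700) are the 2 cinnamate 4-hydroxylase genes among the 22 monolignol genes for which the study lists RT-qPCR primers, and they were taken by their gene IDs from the 41335 genes of the deposited table. Their values were compared across 9 RNA-seq libraries of SDX protoplasts, that is, wall-less cells released from the differentiating xylem of the stem. The protoplasts came from 6-month-old Populus trichocarpa trees and were incubated for 12 h after transfection with a plasmid carrying PtrMYB092 (3 libraries), PtrHSFB3-1 (3 libraries) or GFP alone (3 libraries, the control). The TF plasmids also carried GFP, and each TF was driven by the 35S promoter, so the groups differ in a transient overexpression in isolated cells and not in a stable line of trees. The question was how the paralogs differ in their response to the 2 TFs.

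Monolignols, the building blocks of lignin, are made from phenylalanine. Phenylalanine ammonia-lyase (PAL) converts phenylalanine to cinnamic acid, cinnamate 4-hydroxylase (C4H), a cytochrome P450 enzyme of the endoplasmic reticulum, adds a hydroxyl group to give p-coumaric acid, and 4-coumarate:CoA ligase (4CL) joins the product to coenzyme A. In woody stems the xylem is the main site of this pathway. Several MYB TFs are known as activators of lignin genes in plants, and class B heat shock factors are often described as repressors that lack the activation domain of class A.

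The primers that the study designed for the 2 genes are shown with the single bases at which the 2 forward or the 2 reverse primers differ. Capitals mark these bases when the primers of the pair are aligned at their 3′ ends. The primers were not placed on the transcripts, whose sequences were not at hand.
PtrC4H1 forward: aGtgCgcCatAgaCcatatCCtC
PtrC4H2 forward: gaaAtgTgcAatTgaTcatatTTtG
PtrC4H1 reverse: attgcagcGacGttgatgttctcA
PtrC4H2 reverse: attgcagcAacAttgatgttctcC
The forward primers differed at 8 of 23 aligned bases, with 2 extra bases at the 5′ end of that for PtrC4H2, and the reverse primers differed at 3 of 24. These stretches cover only a small part of each transcript. How the authors' counting treated reads that fit both paralogs is not given in the sources used here, so a part of each gene's value could belong to the other.

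The deposited whole numbers are labelled as raw counts, but at the lowest values they scattered less than reads drawn at random, so they are called values here and no counting interval is given. They summed to 428358 to 495579 per library. PtrMYB092 was at 6922 to 17727 in its own libraries, against 4 to 6 in the 6 other libraries, and PtrHSFB3-1 was at 19859 to 42965 in its own libraries, against 53 to 165 in the 6 others. PtrHSFB3-1 was at 105 to 165 in the PtrMYB092 libraries, against 53 to 67 in the GFP libraries (log2 fold change 1.22, limma, adjusted p = 0.0459), and whether this has a part in the PtrMYB092 results was not tested. For either TF the value sums whatever came from the plasmid and from the endogenous gene. In the description field, PtrMYB092 replicates 2 and 3 carry the name of the other TF, against their titles and the transgene values. The 5 secondary wall cellulose synthase genes, the tissue markers used here, were at 0 to 2 in every library. The listed monolignol genes varied widely with GFP, from 0 for PtrCCoAOMT3 and 1 to 4 for PtrHCT6 up to 97 to 349 for Ptr4CL3. In these bulk libraries, fewer cells that express a gene and less RNA per cell cannot be told apart.

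PtrC4H1 was high with both TFs. It was at 585, 363 and 599 in PtrMYB092 replicates 1, 2 and 3, at 449, 207 and 285 in PtrHSFB3-1 replicates 1, 2 and 3, and at 113, 11 and 13 in GFP replicates 1, 2 and 3. All 6 TF libraries lay above the 3 GFP libraries, and the ranges of the 2 TFs overlapped. Over all 7653 genes tested, 13.9% had every PtrMYB092 library above every GFP library, and 20.4% had every PtrHSFB3-1 library above every GFP library. GFP replicate 1 stood apart from the other 2 controls. After scaling of the libraries (normalized values), PtrC4H1 averaged 523 ± 147 with PtrMYB092, 342 ± 160 with PtrHSFB3-1 and 41.3 ± 52.7 with GFP (SD, n = 3 each).

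PtrC4H2 was high with PtrMYB092. It was at 822, 738 and 950 in PtrMYB092 replicates 1, 2 and 3, at 129, 61 and 38 in PtrHSFB3-1 replicates 1, 2 and 3, and at 57, 33 and 21 in GFP replicates 1, 2 and 3. The PtrMYB092 libraries lay above the other 6, whereas PtrHSFB3-1 replicate 3 fell among the controls. Every PtrMYB092 library lay above every PtrHSFB3-1 library in 16.4% of all genes tested, beside the 13.9% given for GFP. The normalized values averaged 845 ± 125 with PtrMYB092, 83.4 ± 58.0 with PtrHSFB3-1 and 33.6 ± 16.5 with GFP (SD, n = 3 each). Both genes had a value of at least 10 in every library, so neither passed the filter on low values through 1 construct alone.

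**Figure D1:**
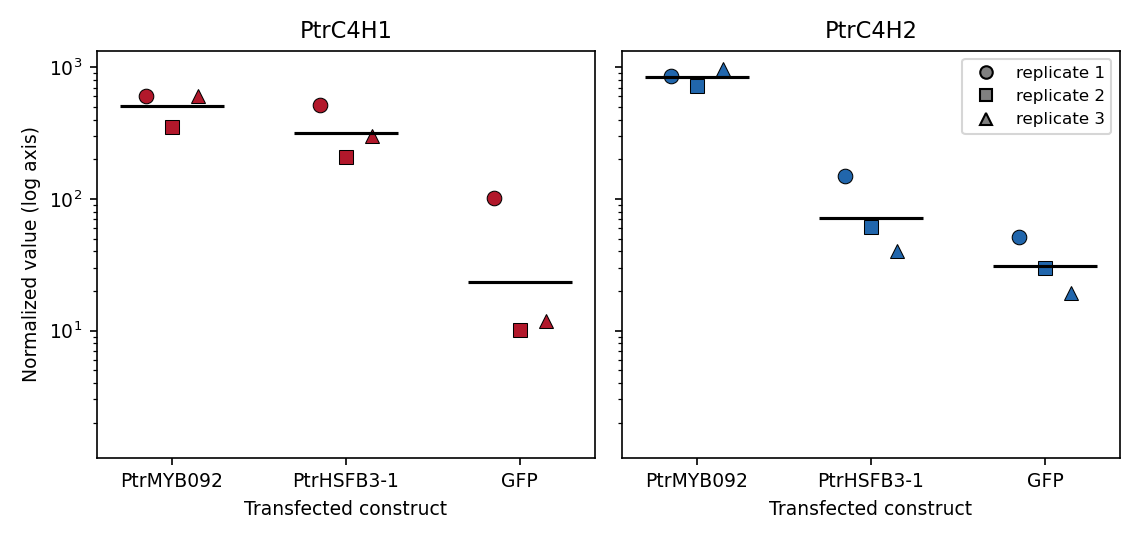
Normalized value (log axis) of PtrC4H1 and PtrC4H2 in each library, by transfected construct; symbols mark the replicate number and bars the mean on the log2 scale. PtrC4H1 sits high with both TFs, whereas PtrC4H2 sits between 716 and 966 with PtrMYB092 and at 149 or less in the 6 other libraries.

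The libraries of a construct differed more for these genes than for most. The SD of PtrC4H1 among the GFP libraries was 1.80 on the log2 scale, larger than that of 99.5% of the 7653 genes tested, whose median SD was 0.28. The SD of PtrC4H2 was 0.22 among the PtrMYB092 libraries, below the median of 0.28, and 0.96 among the PtrHSFB3-1 libraries, above that of 95.1% of genes. Much of the spread with GFP and with PtrHSFB3-1 lay in replicate 1, the highest library for both genes. With PtrMYB092 it was replicate 2 that stood apart for PtrC4H1, at 8.465 on the log2 scale, against 9.25 in replicates 1 and 3. For PtrC4H1, replicate 1 exceeded the mean of replicates 2 and 3 by 0.39 log2 units with PtrMYB092, 1.06 with PtrHSFB3-1 and 3.11 with GFP. For PtrC4H2 the same excess was 0.04 log2 units with PtrMYB092, 1.58 with PtrHSFB3-1 and 1.07 with GFP. Libraries with the same replicate number moved together across genes, and results are therefore also given with the replicate number as a block where that changes a call.

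Under PtrMYB092 both paralogs rose. A gene was called at an adjusted p under 0.05 (limma across 7653 genes, Benjamini-Hochberg) and a fold change over 2 or under 0.8, and 4.6% of all genes were called higher with PtrMYB092 than with GFP. PtrC4H1 had a log2 fold change of 4.38 (SE 0.78, adjusted p = 0.0109), which is 20.8-fold with a 95% interval of 6.04 to 71.4. PtrC4H2 had a log2 fold change of 4.71 (SE 0.49, adjusted p = 0.00072), which is 26.2-fold with an interval of 12.1 to 56.6. These fold changes ranked as number 29 and number 25 of the 7653 genes. Between libraries of the same replicate number, PtrC4H1 was higher by 2.56, 5.00 and 5.57 log2 units in replicates 1, 2 and 3, and PtrC4H2 by 4.02, 4.53 and 5.58 log2 units. The small difference of PtrC4H1 in replicate 1 belongs to the GFP library with the high value of 113. Without that library the log2 fold change of PtrC4H1 was 5.46 (SE 0.41, adjusted p = 0.000399), which is 44.2-fold. The call of PtrC4H1 was lost without PtrMYB092 replicate 1 (log2 fold change 4.28, limma, adjusted p = 0.0576), PtrMYB092 replicate 3 (4.26, adjusted p = 0.0733) or GFP replicate 3 (3.92, adjusted p = 0.0507), and held in all 9 such fits with the replicate number as a block, a fit that called 6.06% of all genes higher. Without PtrMYB092 replicates 2 and 3, the libraries with the conflicting label, the log2 fold changes were 4.65 and 4.75 with adjusted p = 0.237 for PtrC4H1 and 0.0808 for PtrC4H2, where the lone library was assumed to vary like the other groups.

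Under PtrHSFB3-1 PtrC4H1 was called and PtrC4H2 was called only with paired libraries; the difference between them is tested with their ratio. PtrC4H1 rose with a log2 fold change of 3.71 (SE 0.78, limma, adjusted p = 0.0178), which is 13.1-fold with a 95% interval of 3.80 to 44.8 and ranked as number 54, where 7.08% of all genes were called higher. Without GFP replicate 1 it had a log2 fold change of 4.77 (SE 0.41, adjusted p = 0.00077), which is 27.3-fold. PtrC4H2 had a log2 fold change of 1.18 (SE 0.49, unadjusted p = 0.0402, adjusted p = 0.150), which is 2.26-fold with an interval of 1.05 to 4.89, ranked as number 627 and was not called. With the replicate number as a block PtrC4H2 was called higher (SE 0.32, adjusted p = 0.0168), and so were 10.2% of all genes. Between libraries of the same number, PtrC4H1 was higher by 2.33, 4.24 and 4.55 log2 units in replicates 1, 2 and 3, and PtrC4H2 by 1.52, 1.00 and 1.02 log2 units. PtrC4H2 was thus above its control in each of the 3 pairs, although the groups overlapped when the pairing was set aside. For this and the other contrasts, the share of all genes with the same sign in all 3 pairs is not given here.

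With each library left out in turn, the log2 fold change of PtrC4H1 with PtrHSFB3-1 stayed between 3.13 and 4.77, and it was called in 5 of the 9 fits. The call was lost without PtrHSFB3-1 replicate 1 (log2 fold change 3.37, limma, adjusted p = 0.0559) or PtrHSFB3-1 replicate 3 (3.77, adjusted p = 0.0748). It was also lost without GFP replicate 2 (3.13, adjusted p = 0.0627) or GFP replicate 3 (3.24, adjusted p = 0.0666), and it held in all 9 fits with the block. The blocked call of PtrC4H2 was lost without GFP replicate 3 (log2 fold change 1.00, adjusted p = 0.0974) and without PtrHSFB3-1 replicate 1, where the log2 fold change was 0.86 and the fold change no longer over 2 (adjusted p = 0.0418). The balance of calls over all genes also moved with the scaling. Of the genes called in this contrast 70.2% were higher, against 50.4% when the scaling used all genes above 0 and 32.2% when only column totals were used, which put the median of all genes at -0.25 in place of 0.01 on the log2 scale. With column totals the log2 fold changes were 3.43 for PtrC4H1 and 0.90 for PtrC4H2.

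**Figure D2:**
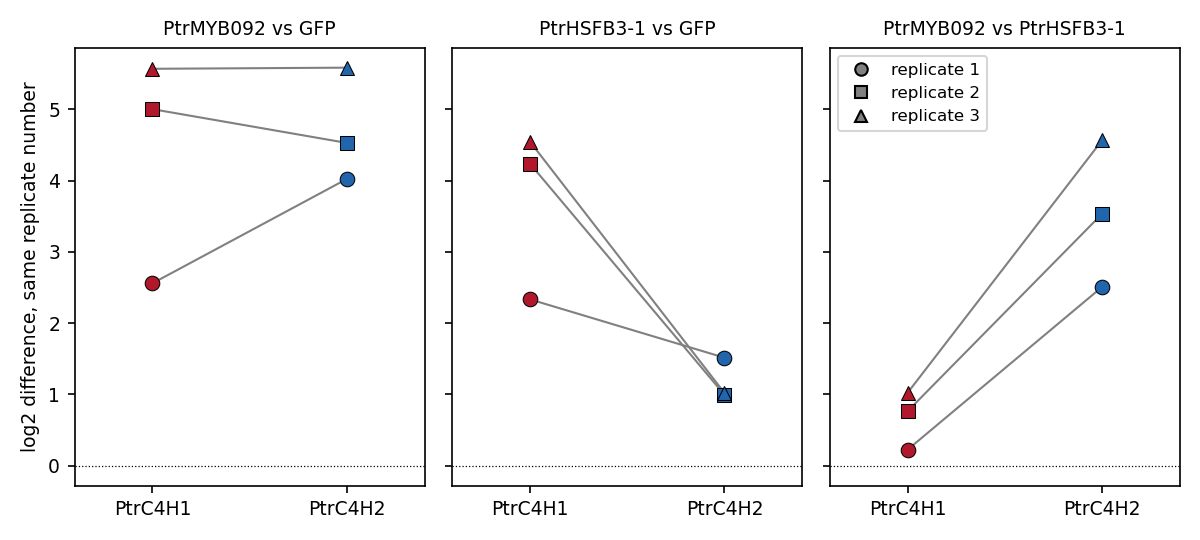
Log2 difference between libraries of the same replicate number, for PtrC4H1 and PtrC4H2 in each of the 3 contrasts; grey lines join the 2 genes of a pair of libraries. With PtrMYB092 against GFP the difference of PtrC4H1 is the larger in 1 of 3 pairs, with PtrHSFB3-1 against GFP in 3 of 3, and with PtrMYB092 against PtrHSFB3-1 in 0 of 3.

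The 2 TFs were also set against each other. The GFP libraries enter this fold change only through the filter and the scaling, but they do enter its SE, which is shared over the 9 libraries. PtrC4H2 was higher with PtrMYB092 than with PtrHSFB3-1, with a log2 fold change of 3.53 (SE 0.49, limma, adjusted p = 0.00192), which is 11.6-fold with a 95% interval of 5.36 to 25.0. It ranked as number 22 of 7653 genes, of which 4.55% were called higher. PtrC4H1 had a log2 fold change of 0.67 (SE 0.78, adjusted p = 0.636) with an interval of -1.11 to 2.45, which spans 0.463-fold to 5.47-fold. The interval narrowed to -0.25 to 1.66 in a fit of the 6 TF libraries alone (log2 fold change 0.70, SE 0.40, adjusted p = 0.295), and to -0.15 to 1.54 without GFP replicate 1 (0.69, SE 0.37, adjusted p = 0.247). Between libraries of the same number, PtrC4H2 was higher by 2.51, 3.53 and 4.56 log2 units in replicates 1, 2 and 3, and PtrC4H1 by 0.22, 0.76 and 1.02 log2 units. Every pair had the same sign for both genes, and the smallest difference of PtrC4H2 exceeded the largest of PtrC4H1. PtrC4H1 was not called with the block either (adjusted p = 0.285), but without PtrMYB092 replicate 1 the blocked log2 fold change was 1.29 (adjusted p = 0.0472). The call of PtrC4H2 held without each of the 9 libraries, and was lost without PtrMYB092 replicates 2 and 3 together (log2 fold change 3.58, adjusted p = 0.0727).

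The order of the constructs was thus PtrMYB092, PtrHSFB3-1 and GFP for both genes, with the gap in a different place. For PtrC4H1 the neighbours PtrMYB092 and PtrHSFB3-1 were not called different, although PtrC4H1 was higher with PtrMYB092 in 3 of 3 pairs. With the block and without GFP replicate 1 its log2 fold change of 0.69 had an adjusted p of 0.0167 (limma), under the 2-fold limit of a call, and without replicate 1 of all groups 0.91 had an adjusted p of 0.00138. For PtrC4H2 the neighbours PtrHSFB3-1 and GFP were not called different, unless the libraries were paired.

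The difference between the paralogs was tested on their ratio within each library, which does not depend on the scaling except through the pseudocount of 1. Because transcript lengths are not in the files, the ratio itself does not say which gene is the more abundant, but its change between constructs does not depend on length. The listed value of PtrC4H1 was 0.71, 0.49 and 0.63 times that of PtrC4H2 in PtrMYB092 replicates 1, 2 and 3, 3.48, 3.39 and 7.50 times in PtrHSFB3-1 replicates 1, 2 and 3, and 1.98, 0.33 and 0.62 times in GFP replicates 1, 2 and 3. The PtrHSFB3-1 libraries lay above all 6 others, and the PtrMYB092 ratios lay within the range of the GFP ratios. The log2 ratio averaged -0.73 ± 0.27 with PtrMYB092, 2.14 ± 0.64 with PtrHSFB3-1 and -0.39 ± 1.25 with GFP (SD, n = 3 each).

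**Figure D3:**
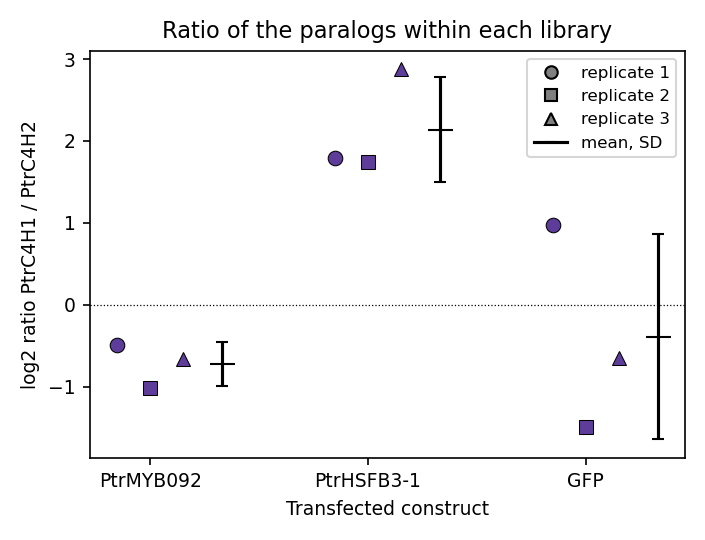
Log2 ratio of PtrC4H1 to PtrC4H2 within each library, by transfected construct; symbols mark the replicate number, and the bar beside them gives the mean and SD. The 3 PtrHSFB3-1 libraries lie at 1.75 to 2.88, above every PtrMYB092 library (-1.02 to -0.49) and every GFP library (-1.50 to 0.97).

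An exact permutation test of the ratio over all assignments of the libraries to the 3 constructs gave p = 0.0286, but it ignores the pairing by replicate number. With labels moved only within replicate numbers the exact p was 0.0833, where 0.0278 is the smallest possible. For single contrasts, 3 libraries against 3 cannot give an exact permutation p below 0.1. The log2 ratio was lower by 2.86 with PtrMYB092 than with PtrHSFB3-1 (difference -2.86, SE 0.40, exact two-sided p = 0.1, adjusted over 3 contrasts 0.15). It was higher by 2.53 with PtrHSFB3-1 than with GFP (SE 0.81, exact p = 0.1, adjusted 0.15). Between PtrMYB092 and GFP it differed by -0.34 (SE 0.74, exact p = 0.8, adjusted 0.8), less than the spread of the controls. Both differences that involve PtrHSFB3-1 had the same sign in 3 of 3 pairs of equal replicate number. With labels moved only within these pairs the exact p was 0.25 for each of them, the smallest possible with 3 pairs. For PtrMYB092 against GFP it was 0.75. The test over the 3 constructs gave an exact p of 0.0643 without any single PtrHSFB3-1 replicate (1, 2 or 3). Without GFP replicate 1 the difference between PtrMYB092 and GFP turned to 0.35, and that between PtrHSFB3-1 and GFP was 3.21.

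The summed normalized value of the 2 genes was 1368 ± 265 with PtrMYB092, 425 ± 214 with PtrHSFB3-1 and 74.9 ± 68.3 with GFP (SD, n = 3 each). PtrC4H1 made up 37.7% ± 4.4 of the listed sum with PtrMYB092, 81.1% ± 6.2 with PtrHSFB3-1 and 43.2% ± 21.2 with GFP. These shares are of values not corrected for length.

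The other genes of the pathway give the setting of these responses. Among the 22 monolignol genes with listed primers, 20 passed the filter, the C4H genes included, and PtrCAld5H1 and PtrCCoAOMT3 did not. PtrHCT1 and PtrHCT6 passed only with the PtrMYB092 libraries counted, so their calls with PtrMYB092 are not independent of the filter. The list is the study's own and is not independent evidence of a direction. With PtrMYB092 against GFP 18 of the 20 were higher and none lower (limma; 0 lower also at an unadjusted p under 0.05), where 4.6% of all genes were called higher and 0.366% lower, with a median log2 fold change of 4.08, against -0.05 over all genes. With PtrHSFB3-1 against GFP 11 were higher and none lower (0 lower also at an unadjusted p under 0.05), where 7.08% of all genes were called higher and 3.01% lower, with a median of 1.90, against 0.01 over all genes. Among the 20, PtrC4H1 ranked as number 8 and PtrC4H2 as number 6 for the log2 fold change with PtrMYB092, and PtrC4H1 as number 4 and PtrC4H2 as number 15 with PtrHSFB3-1. With the replicate block 15 were higher and 1, PtrHCT1 (log2 fold change -0.63, limma, adjusted p = 0.00916), was lower with PtrHSFB3-1, where 10.2% of all genes were called higher and 16.9% lower. The PtrHSFB3-1 count of 11 fell to 5 without PtrHSFB3-1 replicate 3, to 6 without GFP replicate 2 and to 7 without GFP replicate 3. The PtrMYB092 count of 18 fell to 13 without PtrMYB092 replicate 3. Without both PtrMYB092 replicates 2 and 3 that group has 1 library, so such a fit cannot show how many of the 18 hold. The share of all genes called in these fits is not given here. Whether the monolignol genes lost more calls than other genes was not tested.

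Between the TFs, 12 of the 20 genes were higher with PtrMYB092 than with PtrHSFB3-1 and none lower (limma; 0 lower also at an unadjusted p under 0.05), where 4.55% of all genes were called higher and 9.8% lower, with a median log2 fold change of 1.84, against 0.02 over all genes. The paralogs stood near opposite ends of this list: PtrC4H2 had the highest log2 fold change of the 20 and PtrC4H1 ranked as number 18. Only PtrCAld5H2 and PtrCSE1 ranked below PtrC4H1. The count of 12 fell to 5 without PtrHSFB3-1 replicate 2, to 4 without PtrHSFB3-1 replicate 3 and to 4 without PtrMYB092 replicate 3. The share of all genes called in these fits is not given here either.

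**Figure D4:**
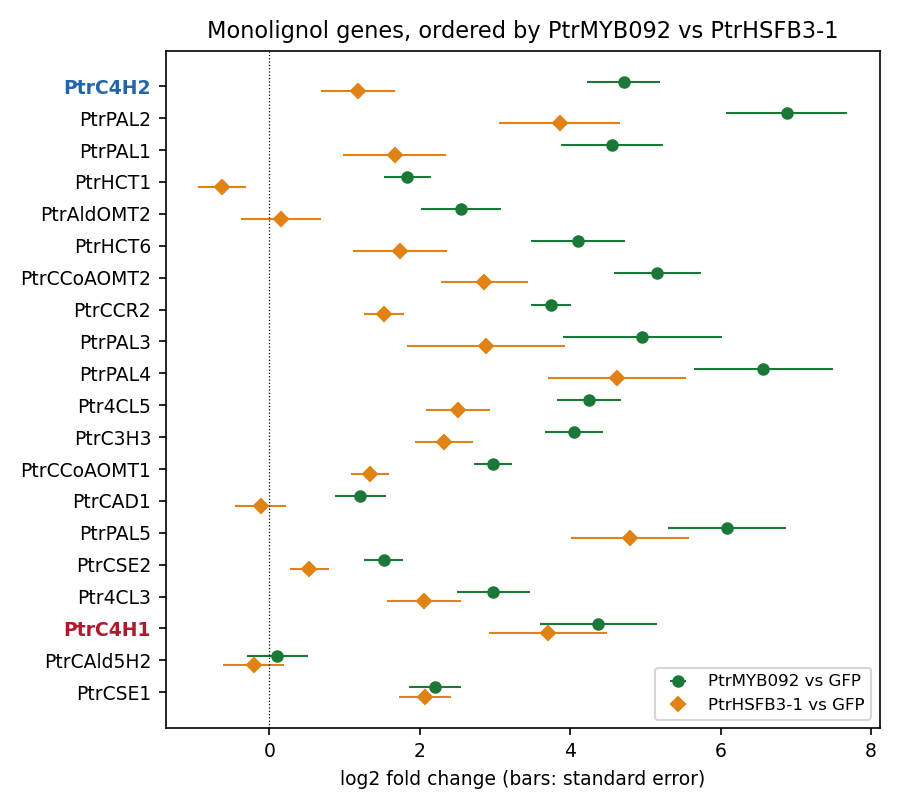
Log2 fold change against GFP (bars give the standard error) of the 20 monolignol genes tested, with PtrMYB092 (circles) and PtrHSFB3-1 (diamonds), ordered from the top by the difference between the TFs. PtrC4H2, at the top, has values of 4.71 and 1.18, and PtrC4H1 near the bottom has values of 4.38 and 3.71.

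The step before C4H is carried by 5 PAL genes, all called higher with PtrMYB092 than with GFP, with log2 fold changes of 4.56 (PtrPAL1) to 6.88 (PtrPAL2). With PtrHSFB3-1 not all passed the test, and differences between the members were not tested. PtrPAL2, PtrPAL4 and PtrPAL5 were called, with log2 fold changes of 3.86, 4.62 and 4.80 (limma, adjusted p = 0.0169, 0.0138 and 0.00581). PtrPAL1 at 1.66 and PtrPAL3 at 2.88 were not (adjusted p = 0.144 and 0.108), and with the replicate block all 5 were called. Between the TFs, PtrPAL1 and PtrPAL2 were higher with PtrMYB092 (log2 fold changes 2.90 and 3.02, adjusted p = 0.0207 and 0.0350), and the other 3, at 1.29 to 2.08, were called only with the block, which called 5.63% of all genes higher.

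The high value of GFP replicate 1 seen for PtrC4H1 recurred among the PAL genes. PtrPAL3 was at 1277, 654 and 716 with PtrMYB092, at 606, 88 and 124 with PtrHSFB3-1 and at 158, 11 and 13 with GFP, in replicates 1, 2 and 3. PtrPAL4 was at 1363, 1033 and 1281 with PtrMYB092, at 501, 207 and 255 with PtrHSFB3-1 and at 76, 8 and 3 with GFP. In both genes GFP replicate 1 lay well above the other 2 controls, while the PtrHSFB3-1 libraries overlapped the controls in PtrPAL3 and not in PtrPAL4.

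The step after C4H is represented by Ptr4CL3 and Ptr4CL5, which were called with both TFs. The log2 fold change of Ptr4CL3 was 2.98 with PtrMYB092 and 2.06 with PtrHSFB3-1 (limma, adjusted p = 0.00713 and 0.0279), and that of Ptr4CL5 was 4.25 and 2.51 (adjusted p = 0.00066 and 0.00679). Between the TFs, Ptr4CL5 was higher with PtrMYB092 (log2 fold change 1.74, adjusted p = 0.0242), and Ptr4CL3 was not called (0.92, adjusted p = 0.252).

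The patterns of the paralogs over the 9 libraries were compared with those of all other tested genes, as the root mean square difference of log2 values after each gene was centred on its own mean. Among the monolignol genes PtrC4H1 was nearest to PtrPAL5 (0.76 log2 units), PtrCCoAOMT2, a caffeoyl-CoA O-methyltransferase gene (0.76), and PtrPAL3 (0.77). PtrC4H2 was nearest to PtrPAL1 (0.52), PtrHCT6, a hydroxycinnamoyltransferase gene (0.60), and PtrCCR2, a cinnamoyl-CoA reductase gene (0.66). PtrHCT6 passed the filter only with the PtrMYB092 libraries counted, being at 20, 4 and 4 with PtrHSFB3-1 and at 4, 1 and 1 with GFP. The next by nearness were the same for both, Ptr4CL5 (0.78 log2 units from PtrC4H1 and 0.80 from PtrC4H2) and the p-coumaroyl ester hydroxylase gene PtrC3H3 (0.82 and 0.81), so the order near PtrC4H1 rests on small differences. The paralogs were 1.45 log2 units apart: of 7652 other genes, PtrC4H2 was number 106 by nearness to PtrC4H1, and PtrC4H1 was number 192 by nearness to PtrC4H2.

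The gene nearest to PtrC4H1 of all those tested was Potri.009G148800 (0.53 log2 units), at 260, 159 and 234 in PtrMYB092 replicates 1, 2 and 3, at 223, 66 and 89 in PtrHSFB3-1 replicates 1, 2 and 3, and at 16, 5 and 6 in GFP replicates 1, 2 and 3. It was high with both TFs and highest among the controls in replicate 1, a likeness that follows from how it was chosen. The gene nearest to PtrC4H2 was Potri.019G057800 (0.46 log2 units), at 27, 19 and 22 in PtrMYB092 replicates 1, 2 and 3, at 2, 1 and 1 in PtrHSFB3-1 replicates 1, 2 and 3, and listed at 0 in the 3 GFP libraries. It passed the filter through the PtrMYB092 libraries alone, and its low values elsewhere make its distance depend on the pseudocount.

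**Figure D5:**
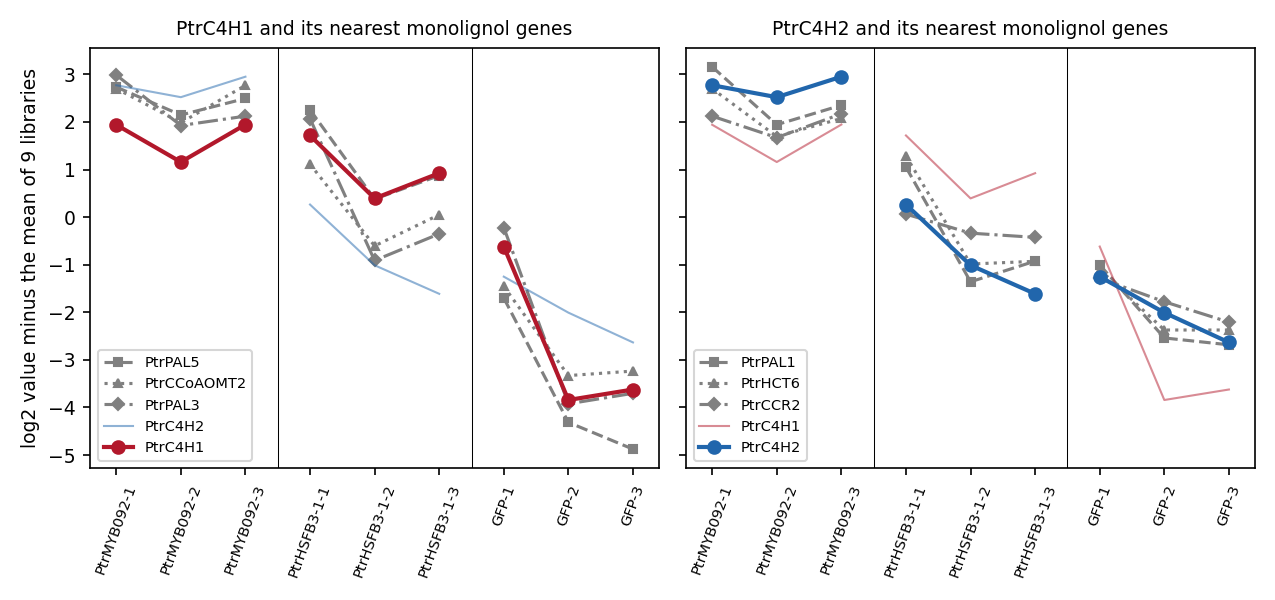
Log2 value minus the gene's mean over the 9 libraries, for PtrC4H1 (left) and PtrC4H2 (right) with the 3 nearest monolignol genes of each in grey and the other paralog as a thin line; vertical lines part the constructs and the number after a construct is the replicate. PtrC4H1 stays above its mean in all 3 PtrHSFB3-1 libraries, whereas PtrC4H2 falls below its mean in 2 of them.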

How the data were processed

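RNA-seq values of SDX protoplasts, 3 libraries per construct, were taken from the table that the authors deposited. Reads were mapped with Bowtie 2 per the study's methods, while the submitters' notes list TopHat; the sources used here do not name the counting tool. The authors labelled the deposited values raw counts, but they were treated as a score on an unstated scale: where a gene summed to 2 over a pair of libraries, each library held 1 in 81.9% to 97.5% of cases (36 pairs), against at most 50% for random draws. The variance was 0.0503 to 0.383 times that of random draws at sums of 2 and 0.244 to 1.07 times at sums of 5 to 8, so the upper end there is not below random draws. The depth in reads is therefore unknown.

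Of 27542 genes above 0, 7653 entered the tests, with 10 or more in no fewer than 3 libraries and 15 or more in sum. TMM factors (trims of 30% of ratios and 5% of levels) were computed over these genes; a version over all genes above 0 was run first, and the reported one was chosen after both had been seen. The log2(value + 1) values, a scale that understates changes of low genes, were fitted with limma 3.58.1 in R 4.3.3 over all 9 libraries (6 residual degrees of freedom, trended variance). Calls required an adjusted p (Benjamini-Hochberg) under 0.05 with fold changes over 2 or under 0.8. Scripts were tested on simulated data.

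Deviations from the group mean correlated across genes at 0.516 to 0.863 in the 9 same-numbered pairs of libraries and at -0.706 to 0.267 in the 18 others, so replicate numbers pair the libraries (4 residual degrees of freedom with the block); what a number stands for is not given, nor whether replicates came from separate trees.

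The genes named were PtrC4H1 and PtrC4H2, the TFs, the PAL and 4CL genes and, for each member, the 3 nearest monolignol genes and the nearest gene of all. PtrCAld5H1, PtrCAld5H2, PtrCCoAOMT3, PtrC3H3, PtrCSE1 and PtrHCT1 were named after their values were seen. The members, lists and rules were chosen with earlier results of these data known. With 0 of 41335 IDs found in the reference table, no coordinates are given. Alternatives were other scalings, pseudocounts, filters, thresholds, variance models and sets of libraries.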

Additional observations from a re-analysis of the deposited data

How the results depend on the processing

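No alternative reversed the direction of a fold change of PtrC4H1 or PtrC4H2. Leaving out each library in turn gave log2 fold changes, with PtrMYB092 against GFP, of 3.81 to 5.46 for PtrC4H1 and 4.38 to 5.12 for PtrC4H2; with PtrHSFB3-1 against GFP, of 3.13 to 4.77 and 0.67 to 1.61; and with PtrMYB092 against PtrHSFB3-1, of 0.34 to 1.00 and 3.10 to 4.04. The ranges were 13 to 18, 5 to 12 and 4 to 14 for the monolignol genes called in these contrasts. They cover single libraries left out, and the shares of all genes called in these fits are not given here. The exact p of the paralog ratio over the 3 constructs ranged from 0.00714 to 0.0643. In the same order of contrasts, the log2 differences of the ratio ranged over -0.89 to 0.35, 1.98 to 3.21 and -3.06 to -2.50.

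The replicate block turned PtrC4H2 with PtrHSFB3-1 against GFP to a call (log2 fold change 1.18); with it the lowest and highest values with a library left out were 0.86 and 1.49 (1.29 and 1.26 without GFP replicates 1 and 2; 1.25 without PtrHSFB3-1 replicate 2; 1.17, 1.18 and 1.18 without PtrMYB092 replicates 1, 2 and 3), with 1.05 without replicate 1 of all 3 groups; for PtrC4H1 between the TFs the range was 0.30 to 1.29. The block changed no other call of the 2 genes. It weakened the ratio test over the constructs to an exact p of 0.0833. Without replicate 1 of all groups that exact p was 0.2, where 6 libraries cannot go below 0.0667, and the ratio difference between PtrMYB092 and GFP was 0.23.

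Without PtrMYB092 replicates 2 and 3, the log2 fold changes of 4.65 (PtrC4H1 against GFP), 4.75 (PtrC4H2 against GFP) and 3.58 (PtrC4H2 between the TFs) were no longer called. An adjusted p under 0.01 left 5 monolignol genes with PtrHSFB3-1 against GFP and 4 between the TFs, and the share of all genes called at that limit is not given here.

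Scaling over all genes above 0 was run first, and the reported scaling was chosen after both had been seen. The earlier scaling kept every call of the 2 genes, with PtrC4H1 at 3.58 and PtrC4H2 at 1.05 for PtrHSFB3-1 against GFP. The fits with the block and libraries left out were also added after seeing the data. Between the TFs 31.7% of all calls were higher, against 46.5% with column totals. The depth in reads is unknown, and 3 libraries per construct limit the precision.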
